A study of Mus musculus with 2 samples.

Results

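Solute carriers are membrane proteins that move amino acids, sugars, metals, inorganic ions, vitamins and metabolites across the plasma membrane and the membranes of organelles. The genes described here are the solute carrier genes that gave a clear signal in cultured mouse macrophages. A row of the expression table was taken when the array's annotation gave it a single symbol that began with Slc and a number. The row with the highest mean was kept for each symbol, and a gene was kept when the higher of its 2 values was at least 8 on the log2 scale. The members were thus chosen by their measured levels, and a gene bright in a single array could pass through that array. This left 152 genes of 364 solute carrier symbols, out of 19863 genes in the table. They came from 43 of the 51 numbered families on the array. Their levels are therefore a description.

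The macrophages were grown from the bone marrow of mice aged 8 weeks, in RPMI-1640 with serum and medium conditioned by L929 fibroblasts, which supplies macrophage colony-stimulating factor. There was 1 array of macrophages labelled beta-catenin deficient and 1 array of control macrophages. Both groups shared the culture medium and age, and no other treatment was labelled. The sources used here do not give the mouse strain, the deleted part of the gene, any Cre driver or how many animals a culture came from. The question of the comparison is how macrophage expression changes without beta-catenin, a cadherin partner and the nuclear carrier of the Wnt signal.

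Ctnnb1, which encodes beta-catenin, was 11.44 in the array labelled deficient and 11.29 in the control array, and so was not lower under that label. Probes outside a deleted part check nothing about the deletion, and each direction below rests on the label. Axin2, a feedback target of beta-catenin, was 5.97 in the array labelled deficient and 7.61 in the control array. All 10 macrophage markers were above a level of 8 in both arrays, with a median difference of 0.10. They ran from Lyz2 (-0.38) to Fcgr1 (0.78), and 1 was higher and 0 lower by 1.5-fold or more. Other cell types moved as well. Of 11 stromal markers found, 10 were higher by 1.5-fold or more, and their summed unlogged signal was 17546 in the array labelled deficient and 7947 in control. Of 12 neutrophil granule markers 11 were higher, with sums of 18133 in the array labelled deficient and 7937 in control. Markers of mast cells and basophils (3 of 8 higher and 0 lower, sums of 1340 labelled deficient and 774 control), erythroid cells and megakaryocytes (3 of 8 higher and 2 lower, 12539 labelled deficient and 5573 control), dendritic cells (2 of 9 higher and 3 lower, 3077 labelled deficient and 1782 control), endothelium (1 of 7 higher and 0 lower, 1239 labelled deficient and 840 control) and lymphocytes (3 of 7 higher and 2 lower, 723 labelled deficient and 760 control) had fewer members on the higher side. In the erythroid and megakaryocyte list the higher genes were the megakaryocyte genes Ppbp, Gp9 and Itga2b. The lower genes were the erythroid Klf1 (-0.77) and Ermap (-0.90), with Alas2 at 0.09 and Epor at -0.22. The pooled sums of that list thus do not show a rise of erythroid signal. RMA values do not reach 0, so no marker could be called absent. The part of these cells in the differences below was not tested, and a change in the share of a cell type cannot be told apart from a change in RNA per cell.

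Macrophages take up and recycle iron from red cells, feed nitric oxide and polyamine synthesis with arginine, and rely on glucose and lactate carriers when activated. Some amino acid exchangers of the plasma membrane work as pairs of a heavy chain and a light chain. Zinc is moved out of the cytosol by the ZnT family and into it by the ZIP family, and the SLC25 family serves almost wholly the inner mitochondrial membrane.

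Most solute carrier genes differed little between the arrays, as did most genes of the table at the same level. More members were lower than higher by 1.5-fold or more in the array labelled deficient. Of the 152 members, 6 were higher by 1.5-fold or more (3.95%), 19 were lower by 1.5-fold or more (12.5%), and 127 lay within 1.5-fold (83.6%). Among all 8554 genes with a higher value of at least 8, 7.82% were higher and 8.9% lower by that amount, and 83.3% lay within 1.5-fold. At 2-fold, 1 member was higher and 3 were lower, where 3.09% of all such genes were higher and 1.62% lower. With a loess curve on mean level subtracted, 7 members were past 1.5-fold on the higher side and 13 on the lower, and the background shares were 10% and 6.32%. With 1 array per group no test between conditions exists, so neither these counts nor any difference below can be set against a spread between cultures.

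The median difference of the members was -0.12, beside -0.07 for all genes at that level. The middle of the members ran from -0.37 to 0.05 between the lower and upper quartiles, and that of all genes from -0.32 to 0.19. A negative difference was found in 100 members (65.8%), against 58.1% of all genes. Over all 19863 genes the median was -0.15 as deposited and -0.001 after quantile normalization, which put the members' median at -0.07. Members with a mean level from 8 to 9 had a median difference of -0.08 (45 genes), as had the 2906 genes of the table in that range. From 9 to 10 the medians were -0.11 for 44 members and -0.09 for 2683 genes, and from 10 to 11 they were -0.07 for 36 members and -0.07 for 1535 genes. From 11 to 12 they were -0.05 for 10 members and -0.003 for 659 genes, and from 12 to 13 they were -0.22 for 5 members and 0.004 for 236 genes.

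**Figure D1:**
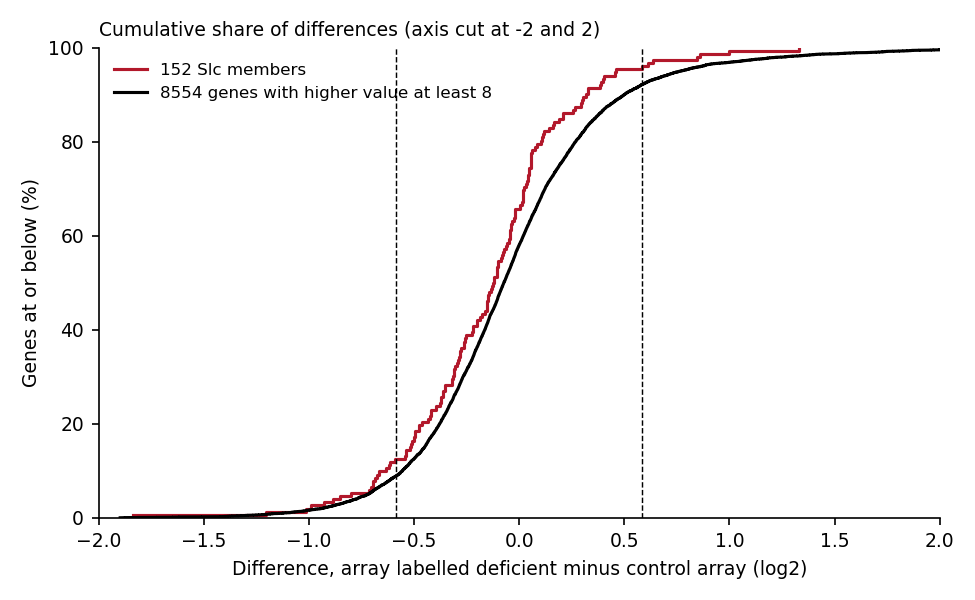
Cumulative share (percent, vertical axis) of 152 solute carrier genes and of 8554 genes with a higher value of at least 8, by the log2 difference of the array labelled deficient minus the control array. The dashed lines mark 1.5-fold, and the line of the solute carriers runs left of the other at the higher differences, with 3.95% of members past 1.5-fold higher beside 7.82% of all genes.

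The level of 8 cut through a continuous range. Just inside it lay Slc33a1, an acetyl-CoA carrier of the endoplasmic reticulum (7.52 in the array labelled deficient and 8.02 in control), Slc39a8 (7.63 labelled deficient, 8.02 control) and Slc39a4 (7.45 labelled deficient, 8.04 control). Just outside lay Slc37a1 (7.99 labelled deficient, 7.83 control), the chloride cotransporter gene Slc12a2 (7.66 labelled deficient, 7.98 control) and the mitochondrial ATP carrier gene Slc25a23 (7.21 labelled deficient, 7.97 control). Of the 152 members, 133 reached the level in both arrays, 15 in the control array alone and 4 in the array labelled deficient alone. Those 19 could pass only through the array in which they were brighter, so the choice of members fixed their signs. Some of them are among the members counted past 1.5-fold in either direction. When the mean of both values had to reach 8, 140 members remained, of which 6 were past 1.5-fold on the higher side (4.29%) and 14 on the lower (10%), beside 6.97% and 7.99% of the 8062 genes with such a mean.

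The highest differences were those of an ATP carrier, an inositol carrier and the iron exporter. Slc25a4, the ADP/ATP carrier of mitochondria that is typical of muscle and other non-dividing cells, was 11.27 in the array labelled deficient and 9.94 in control, a 2.51-fold difference. Slc5a3, the sodium-coupled myo-inositol carrier, was 8.57 in the array labelled deficient and 7.58 in control. It reached the level of 8 in the array labelled deficient alone, so the choice of members fixed its sign. Slc40a1, ferroportin, the exporter of iron, was 10.72 in the array labelled deficient and 9.86 in control. The orphan mitochondrial carrier Slc25a43 (9.89 labelled deficient, 9.04 control), Slc7a6os, which is named for its place opposite a carrier gene and is not a carrier itself (8.78 labelled deficient, 8.15 control), and Slc37a3, a sugar phosphate carrier relative (8.76 labelled deficient, 8.15 control), completed the 6. All 6 stayed past 1.5-fold under centring, quantile normalization and loess. The next 6 lay within 1.5-fold as deposited, the first of them past it under each of the 3 scalings. They ran from the glycine carrier Slc6a9 (0.58) through the peroxisomal cofactor carrier Slc25a17 (0.46), the lysosomal nucleoside carrier Slc29a3 (0.46), the serine and alanine carrier Slc1a4 (0.40) and the glutamate carrier Slc25a22 (0.40) to Slc7a2 (0.39). Slc1a4, Slc25a22 and Slc7a2 were below 8 in control, so the choice of members fixed their sign as well.

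The lowest differences were those of carriers of dicarboxylates, carnitine, creatine and arginine. Slc13a3, which takes up succinate and other dicarboxylates with sodium, was 6.94 in the array labelled deficient and 8.78 in control, a 3.57-fold difference. Slc22a5, the high-affinity carnitine carrier, was 7.57 in the array labelled deficient and 8.77 in control. Slc6a8, the creatine carrier, was 10.41 in the array labelled deficient and 11.42 in control, with both values well above the level of 8. Slc7a1, the main carrier of arginine and lysine in many cells, was 8.96 in the array labelled deficient and 9.95 in control. The next were Slc22a15, an organic ion carrier (-0.93), the Golgi carrier Slc35a5 (-0.88), the urate carrier Slc2a9 (-0.85), sialin, Slc17a5, which exports sialic acid from lysosomes (-0.80), and the potassium-dependent sodium/calcium exchanger Slc24a3 (-0.72). The fatty acid carrier Slc27a4 (-0.71), the purine nucleobase carrier Slc43a3 (-0.69) and the glutamine carrier Slc38a1 (-0.69) followed. Of the 19 lower members, 13 stayed at least 1.5-fold lower under centring, quantile normalization and loess, and none of the 25 members past 1.5-fold in either direction changed sign under these scalings. Among these 12 the array labelled deficient was below 8 for Slc13a3, Slc22a5, Slc22a15, Slc2a9 and Slc24a3. The choice of members thus fixed the sign of those differences, and their size depends on values in the dim range. Among the other lower members the same held for Slc66a2, Slc25a15 and Slc39a4.

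**Figure D2:**
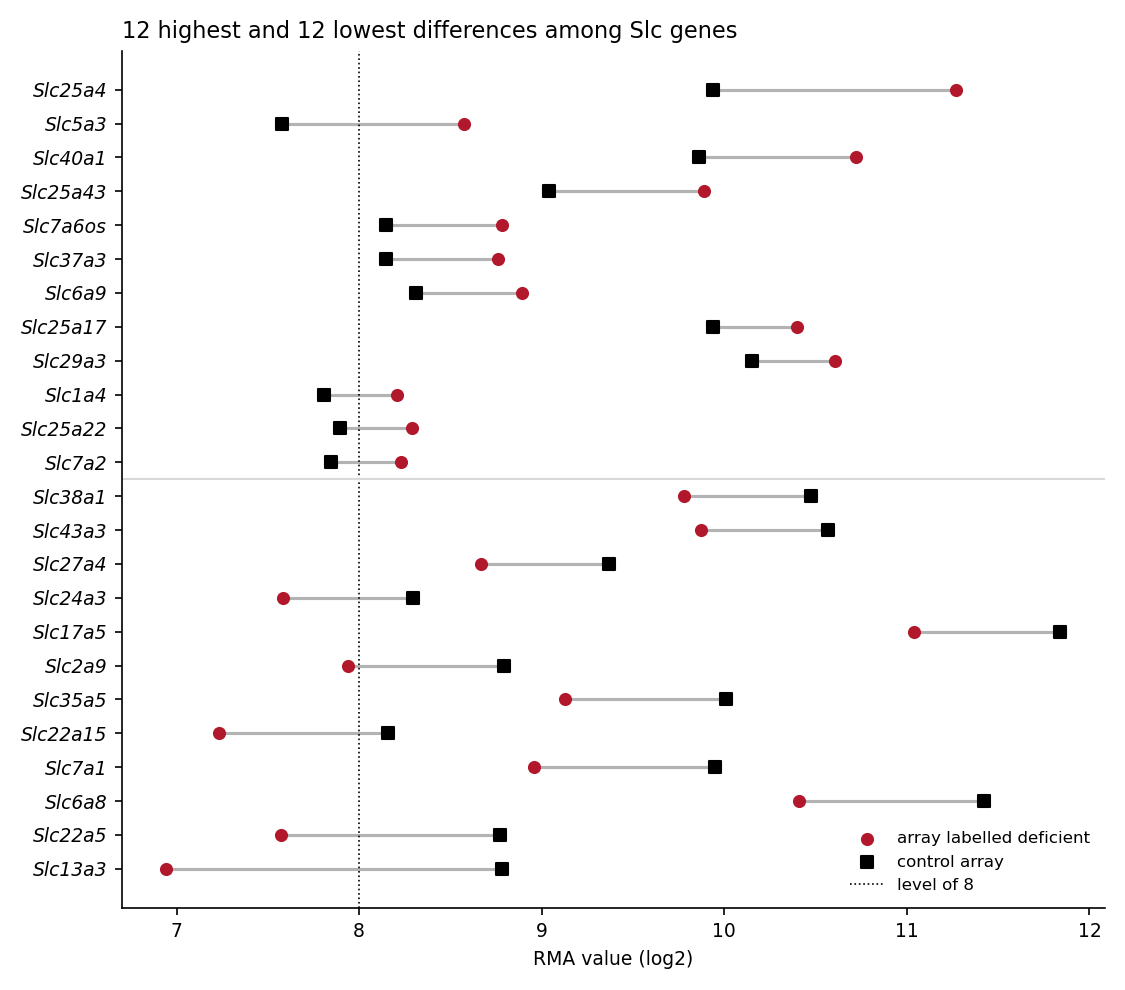
RMA values (log2, horizontal axis) of the 12 solute carrier genes with the highest and the 12 with the lowest difference, with a circle for the array labelled deficient and a square for the control array. Slc25a4 (11.27 labelled deficient, 9.94 control) heads the higher genes, Slc13a3 (6.94 labelled deficient, 8.78 control) ends the lower ones, and the dotted line is the level of 8.

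Promoter windows of 119 of the 152 members were in RefSeq's table (GRCm38.p6), each from 250 bases before a gene's start to 50 after it. Letters of 4 elements were searched on both strands, counting a gene if any of its starts held a match. The TCF/LEF letters CTTTGAA or CTTTGAT, which the DNA-binding partners of beta-catenin recognise, were in 15 of the 119 (12.6%), beside 7.01% of 6972 genes with a higher value of at least 8 and 9.88% of 27025 genes in all. Among members past 1.5-fold they were found for 1 of 5 higher genes, Slc25a43, and 1 of 12 lower genes, Slc7a1. The metal response letters TGCACNC or TGCGCNC were in 45.4% of members, 41.3% of genes at the level and 28.2% of all genes. The antioxidant response letters TGACNNNGC were in 21.8%, 17.2% and 14% in the same order, and the amino acid response letters TGATGNAAN in 5.04%, 2.67% and 4.5%. Median GC content of the windows was 63.0% in members, 61.3% in genes at the level and 52.8% in all genes. A match describes letters only.

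The 250 bases before the start are shown for 4 members from the ends of the range that held such letters, chosen after their values were seen. For Slc7a1 the second of 2 starts is shown, which held 3 TCF/LEF matches where the other start held 0, and for Slc25a43 the 1 match is in capitals. For Slc13a3 capitals mark the antioxidant response letters, and for Slc25a4 a pair of metal response matches that adjoin each other. The matches marked overlap no match of another element.
Slc7a1, chr5:148392816-148393065, minus strand: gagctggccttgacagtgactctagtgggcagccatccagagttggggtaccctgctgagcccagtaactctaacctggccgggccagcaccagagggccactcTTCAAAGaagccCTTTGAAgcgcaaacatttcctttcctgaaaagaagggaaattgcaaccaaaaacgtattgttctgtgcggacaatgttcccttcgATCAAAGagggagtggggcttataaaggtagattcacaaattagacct
Slc25a43, chrX:36743382-36743631, plus strand: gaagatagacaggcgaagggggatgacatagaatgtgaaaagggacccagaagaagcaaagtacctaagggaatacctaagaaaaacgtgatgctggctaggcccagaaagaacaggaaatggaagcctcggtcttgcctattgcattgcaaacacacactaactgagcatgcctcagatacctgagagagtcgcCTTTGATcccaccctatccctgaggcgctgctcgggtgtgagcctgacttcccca
Slc13a3, chr2:165473198-165473447, minus strand: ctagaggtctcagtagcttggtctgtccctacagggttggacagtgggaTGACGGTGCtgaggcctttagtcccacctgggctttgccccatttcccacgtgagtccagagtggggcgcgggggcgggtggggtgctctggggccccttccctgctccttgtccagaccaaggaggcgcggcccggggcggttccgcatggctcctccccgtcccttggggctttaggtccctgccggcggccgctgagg
Slc25a4, chr8:46211063-46211312, minus strand: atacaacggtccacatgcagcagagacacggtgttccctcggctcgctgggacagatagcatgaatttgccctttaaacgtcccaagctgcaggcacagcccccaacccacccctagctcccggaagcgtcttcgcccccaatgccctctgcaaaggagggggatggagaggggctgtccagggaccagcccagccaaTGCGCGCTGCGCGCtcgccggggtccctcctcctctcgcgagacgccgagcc

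By substrate, the carriers of lipids and organic ions and those of carboxylates had the lowest medians among classes with at least 5 members, and ion, sugar and metal carriers lay close to 0. Of all genes at the level, 8.9% were at least 1.5-fold lower and 58.1% had a negative difference. The level kept 5 of the 37 symbols for lipids, bile acids and organic ions. All 5 had negative differences, with a median of -0.71, and 3 of them were at least 1.5-fold lower. Of those 3, Slc22a5 and Slc22a15 reached the level of 8 in the control array alone, so that the choice of members fixed their sign. The 6 carriers of monocarboxylates and dicarboxylates had a median of -0.39, with 2 at least 1.5-fold lower. Of the 2, Slc13a3 reached the level in control alone, and Slc16a6 lay within 1.5-fold under centring (-0.55), quantile normalization (-0.56) and loess (-0.53). The 13 carriers of nucleotide sugars and other Golgi or endoplasmic reticulum substrates had a median of -0.28, with 11 negative differences but only 1 past 1.5-fold. The medians of the other classes with at least 5 members ran from -0.15 (12 other or orphan members) to 0.0006 (14 carriers of inorganic ions). The class of vesicular, neurotransmitter and creatine carriers held 2 members, Slc6a8 and Slc17a5, both at least 1.5-fold lower. Of these medians, that of lipid and organic ion carriers was -0.30 with a level of 7, that of carboxylate carriers -0.12 with a level of 9, and that of the nucleotide sugar class -0.15 after loess. The classes were assigned by family and gene, with the results of these arrays known.

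**Figure D3:**
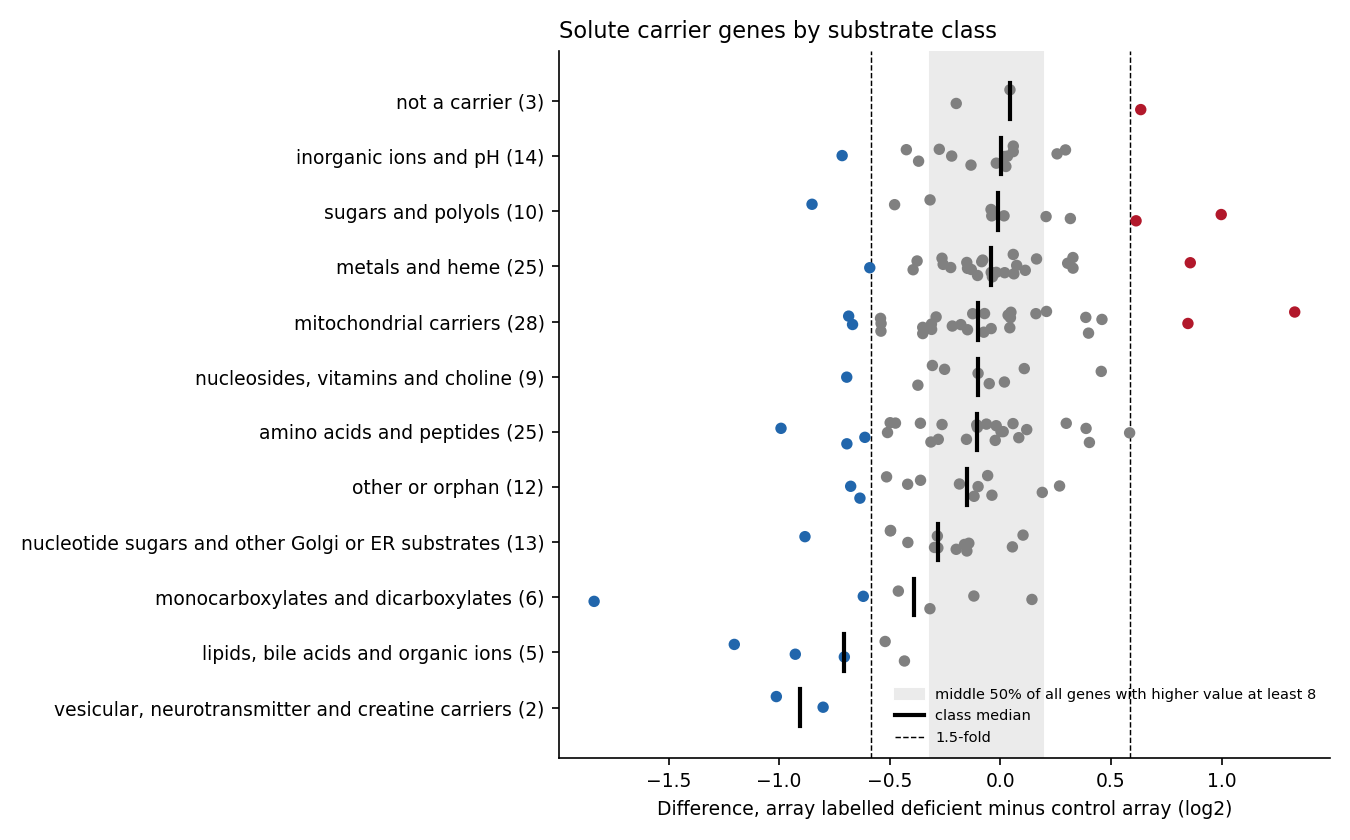
Log2 difference of each of the 152 members (points), the array labelled deficient minus the control array, by substrate class with the number of members in brackets. Red points are at least 1.5-fold higher and blue points at least 1.5-fold lower, black bars are class medians and the grey band is the middle 50% of all genes at the level, and all 5 lipid and organic ion carriers lie left of the band.

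Most amino acid carriers lay within 1.5-fold, as did 83.3% of all genes at the level. Of 25 members for amino acids and peptides, none was past 1.5-fold on the higher side and 3 were on the lower, and the median was -0.10. The 3 were Slc7a1, Slc38a1 and Slc43a2, a uniporter of large neutral amino acids (10.09 in the array labelled deficient and 10.71 in control). Under centring, quantile normalization and loess 1 member was past 1.5-fold upward and 2 downward, since Slc6a9 came past it (0.66, 0.65 and 0.68) and Slc43a2 did not reach it (-0.54, -0.58 and -0.55). Slc38a1 was read by 2 rows, and the dimmer differed by 0.01. At the high end were Slc6a9 (8.89 in the array labelled deficient and 8.31 in control), Slc1a4 (8.21 labelled deficient, 7.80 control) and Slc7a2, the arginine carrier that activated macrophages induce (8.23 labelled deficient, 7.84 control). The 2 arginine carriers Slc7a1 and Slc7a2 differed by -0.99 and 0.39. Slc7a2 lay within 1.5-fold and was below 8 in control, so the choice of members fixed its sign.

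The following groups by role, and the genes named in them, were chosen after their values were seen. The heavy chain Slc3a2, which brings its light chains to the surface, was 12.68 in the array labelled deficient and 13.0 in control. Its light chains Slc7a5 and Slc7a8, which exchange large neutral amino acids, differed by -0.47 and -0.50. Slc7a7, which exports arginine, differed by -0.28, the cystine carrier Slc7a11 by -0.11 and Slc7a6 by 0.01. None of these 6 was past 1.5-fold, and 5 of 6 differences were negative, where 58.1% of all genes at the level had a negative difference. Of 6 members of the SLC38 family of glutamine and neutral amino acid carriers, 5 were negative with a median of -0.26, from Slc38a1 (-0.69) and Slc38a6 (-0.51) through Slc38a2 (-0.36) to Slc38a10 (0.06). The 7 amino acid and peptide carriers of lysosomes stayed between -0.15 (Slc38a9, an arginine sensor for mTORC1) and 0.30 (Slc15a3, a peptide carrier). Among them Slc38a7 (-0.02) and Slc66a1 (-0.06) changed sign with the scaling.

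Genes that amino acid shortage is known to induce through Atf4 gave no common direction. Of 15 at the level, 3 passed 1.5-fold upward and 1 downward, and the median was 0.01. Among all genes at the level, 7.82% passed it upward and 8.9% downward. Of the 3, Aldh1l2 and Ddit4 reached the level in the array labelled deficient alone, so the choice of genes fixed their sign. The highest were the folate enzyme Aldh1l2 (8.47 in the array labelled deficient and 6.93 in control) and Nupr1 (9.40 labelled deficient, 8.66 control). The lowest were the glutathione-degrading Chac1 (8.14 labelled deficient, 8.75 control) and the translation repressor Eif4ebp1 (10.22 labelled deficient, 10.77 control).

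Metal carriers were nearly level apart from the iron exporter. The level kept 25 of their 32 symbols, and 23 of the 25 lay within 1.5-fold, beside 83.3% of all genes at the level. Slc40a1 was the member at least 1.5-fold higher, and Slc39a4, a zinc importer (-0.59), the member at least 1.5-fold lower. Slc39a4 fell inside 1.5-fold under centring, quantile normalization and loess. Next to ferroportin at the high end were the zinc carriers Slc39a13 (10.05 in the array labelled deficient and 9.72 in control) and Slc39a1 (10.51 labelled deficient, 10.18 control), whose other row differed by 0.52. At the low end, Slc39a8 differed by -0.39 and the zinc exporter Slc30a4 by -0.38. Slc39a8 and Slc39a4 reached the level in control alone, so the choice of members fixed their sign. All 6 ZnT exporters and 10 of 11 ZIP importers lay within 1.5-fold, with medians of -0.06 and -0.10.

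Of 8 iron and heme carriers, 6 had negative differences, as had 58.1% of all genes at the level. The median of the 8 was -0.27, with 1 past 1.5-fold upward and 1 downward. Ferroportin differed by 0.86, while Slc25a37, mitoferrin 1, which brings iron into mitochondria, was 9.03 in the array labelled deficient and 9.72 in control. Its relative Slc25a28, mitoferrin 2, differed by -0.31. Slc11a2, the DMT1 importer of iron, differed by -0.22, Slc46a1, a folate and heme carrier, by -0.37, and Slc48a1, which moves heme out of phagolysosomes, by 0.11. Among 15 metal handling genes at the level, 2 passed 1.5-fold upward and 1 downward, and the median was 0.14. Of all genes at the level, 7.82% passed it upward and 8.9% downward. Ceruloplasmin, Cp, the ferroxidase that works with ferroportin, was 9.43 in the array labelled deficient and 6.80 in control, and the iron-scavenging Lcn2 was 11.96 in the array labelled deficient and 11.19 in control. Cp reached the level in the array labelled deficient alone, so the choice of genes fixed its sign. The transferrin receptor gene Tfrc was 9.64 in the array labelled deficient and 10.27 in control, and the ferrireductase Steap3 8.97 in the array labelled deficient and 9.46 in control. Lcn2 is also a neutrophil granule marker, of which 11 of 12 were higher in the same array.

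**Figure D4:**
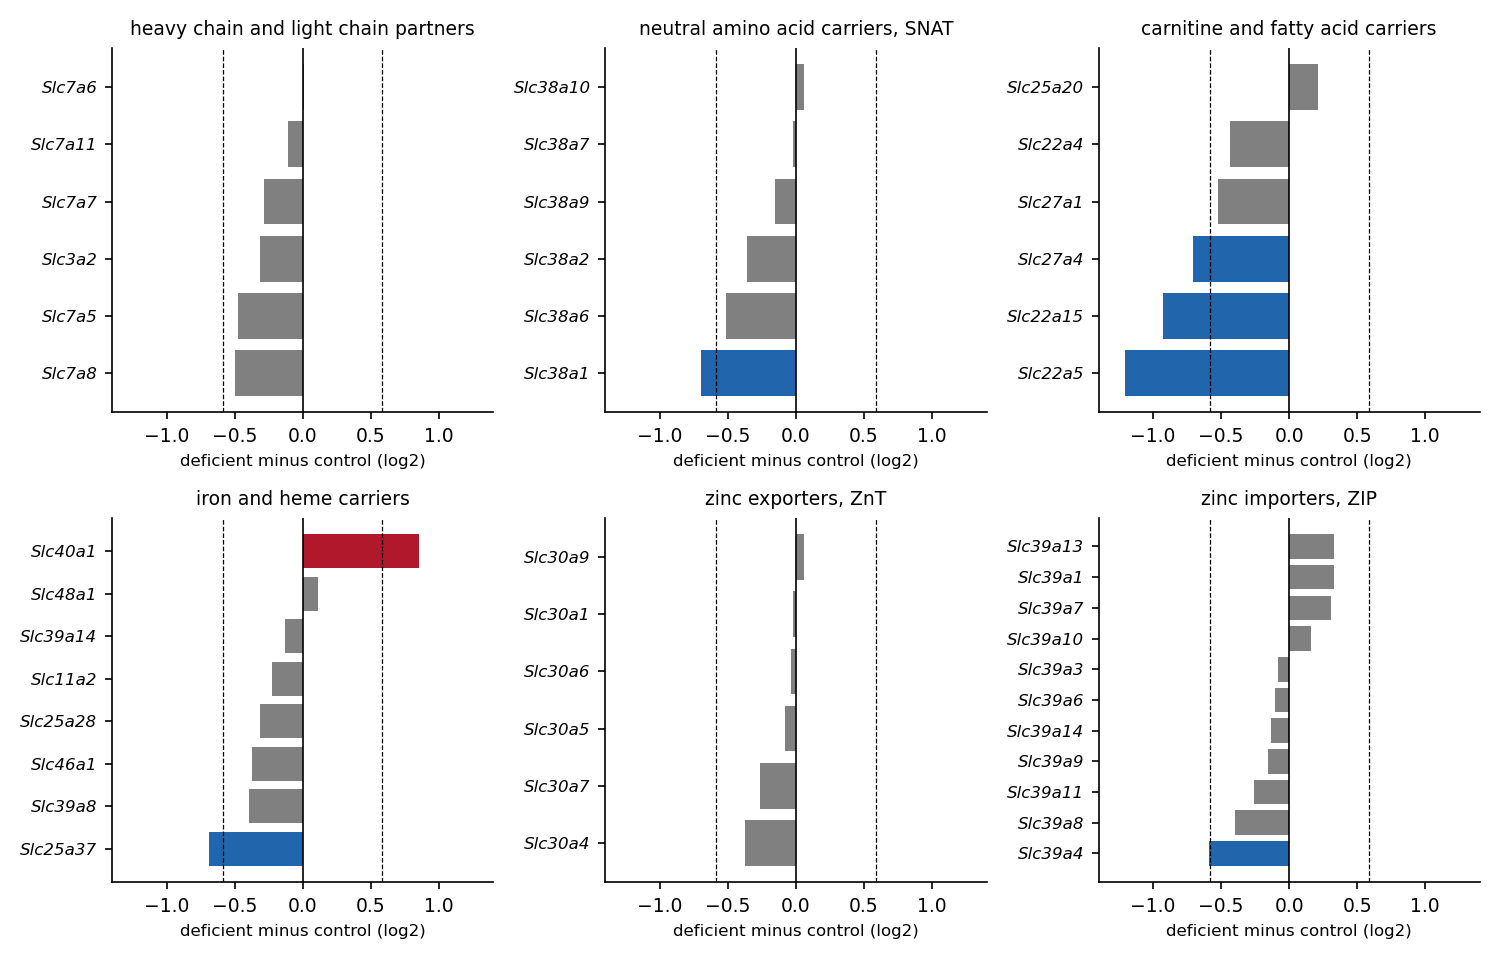
Log2 differences, the array labelled deficient minus the control array, of solute carrier genes in 6 groups by role. Red bars are at least 1.5-fold higher, blue bars at least 1.5-fold lower and grey bars between, dashed lines mark 1.5-fold, and Slc40a1 (0.86) and Slc25a37 (-0.69) lie at opposite ends of the iron group.

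Carriers of carnitine and fatty acids had 5 negative differences of 6. Of 6 such members, Slc22a5 (-1.20), Slc22a15 (-0.93) and Slc27a4 (-0.71) were at least 1.5-fold lower and 0 higher, with a median of -0.61. Among all genes at the level, 8.9% were lower and 7.82% higher by that amount, and 58.1% had a negative difference. Apart from Slc25a20, these members are those of the lipid and organic ion class given above, so this is not a separate result. Slc22a5 and Slc22a15 became members through the control array alone and could only be lower. Slc22a15 was 7.23 in the array labelled deficient and 8.16 in control, and Slc27a4 8.67 in the array labelled deficient and 9.37 in control. Slc27a1, a fatty acid uptake protein, differed by -0.52 and Slc22a4, the ergothioneine carrier, by -0.43. The carnitine-acylcarnitine carrier of mitochondria, Slc25a20, differed by 0.21.

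The 3 lactate and pyruvate carriers lay within 1.5-fold. Slc16a3, the lactate exporter of glycolytic cells, was 10.32 in the array labelled deficient and 10.18 in control. Slc16a1 differed by -0.46 and Slc16a7 by -0.12. Slc16a6 was 8.59 in the array labelled deficient and 9.21 in control, and Slc16a13 differed by -0.32. Embigin and basigin bring lactate carriers to the surface, and neuroplastin and CD44 are also known as partners. Emb was 11.48 in the array labelled deficient and 9.96 in control, and Bsg 11.51 in the array labelled deficient and 10.85 in control. Among 15 partner proteins at the level they were the 2 past 1.5-fold upward, and 0 were past it downward (median 0.24), with Nptn at 0.11 and Cd44 at -0.19, and Wnk1 (-0.34) and Slc3a2 were the lowest. Of all genes at the level, 7.82% were past it upward and 8.9% downward. Mpc1, a subunit of the mitochondrial pyruvate carrier, was 10.41 in the array labelled deficient and 11.20 in control.

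Sugar carriers went both ways. Of 10, Slc5a3 and Slc37a3 were past 1.5-fold upward and Slc2a9 downward (7.94 in the array labelled deficient and 8.79 in control). Of all genes at the level, 7.82% were past it upward and 8.9% downward. The median of the sugar carriers was -0.01, and 0.19 after loess. Slc5a3 reached the level of 8 only in the array labelled deficient and Slc2a9 only in control, so the choice of members fixed the sign of both. When the mean of both values had to reach 8, the class had 9 members, with 2 higher and 1 lower. Slc2a1, the glucose carrier GLUT1, was 12.03 in the array labelled deficient and 11.71 in control. At the low end Slc50a1, a sugar carrier of the SWEET family, differed by -0.48 and Slc2a8 by -0.32. Slc2a8 was 7.73 in the array labelled deficient and 8.05 in control, so the choice of members fixed its sign as well. Slc5a3 overlaps Mrps6, a mitochondrial ribosomal protein gene that was 9.93 in the array labelled deficient and 9.75 in control, so their probes may share signal.

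The 28 members of the SLC25 family had a median of -0.10, with 2 past 1.5-fold upward and 2 downward. Of all genes at the level, 7.82% were past it upward and 8.9% downward. Besides Slc25a37 the lower gene was Slc25a15, the ornithine carrier (7.39 in the array labelled deficient and 8.06 in control), which lay within 1.5-fold after loess. Slc25a13, an aspartate and glutamate carrier, differed by -0.54. Slc25a5, the ADP/ATP carrier that is the close copy of Slc25a4, was read by 3 rows with differences of -0.22, -0.14 and 0.17, beside 1.33 for Slc25a4, and close copies may share signal. The phosphate carrier Slc25a3 was 12.45 in the array labelled deficient and 12.41 in control. Slc25a36, a pyrimidine nucleotide carrier, was read by 2 rows that disagreed, at 0.05 and -0.58.

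Golgi and endoplasmic reticulum carriers leaned low by small amounts. Slc35a5 was 9.13 in the array labelled deficient and 10.01 in control, and the next at the low end were Slc35c2 (-0.50) and Slc33a1 (-0.50). Slc33a1 reached the level in control alone, so the choice of members fixed its sign. The CMP-sialic acid carrier Slc35a1 (0.10), Slc35b4 (0.05) and Slc35a2, which carries UDP-galactose (-0.14), were highest. Slc35a4 was read by 2 rows with differences of -0.15 and -1.20, and the gene overlaps Apbb3. In the lysosome, sialin was 11.04 in the array labelled deficient and 11.84 in control.

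Ion carriers were level in the main. Of 14, 13 lay within 1.5-fold, beside 83.3% of all genes at the level. Slc24a3 was the exception (7.58 in the array labelled deficient and 8.30 in control). Slc12a4 (0.29) and its family relative Slc12a9 (0.26) and the phosphate carrier Slc20a2 (0.06) were highest. The organellar sodium/proton exchanger Slc9a7 (-0.43) and the phosphate carrier Slc20a1 (-0.37) were lowest after Slc24a3. Of 9 carriers of nucleosides, vitamins and choline, Slc43a3 was lower (9.87 in the array labelled deficient and 10.57 in control), and Slc46a1 (-0.37) and the choline carrier Slc44a1 (-0.31) came next. Slc44a1 was read by 2 rows, the other at -0.84. Slc29a3 (0.46), the folate carrier Slc19a1 (0.11) and the nucleoside carrier Slc29a1 (0.02) were highest. Of the 12 other or orphan members, Slc66a2 (-0.68) and Slc10a7 (-0.63) were at least 1.5-fold lower, neither of them after loess (-0.57 and -0.54) and Slc10a7 not under centring (-0.56) or quantile normalization (-0.57) either. Slc35e1 differed by -0.51, and Slc45a4 (0.27), Slc46a3 (0.19) and Slc35e3 (-0.04) were highest, and Slc35e3 changes sign with the scaling. The 3 members that are not carriers were Slc7a6os, the scaffold gene Slc9a3r1 (0.04) and the adaptor gene Slc4a1ap (-0.20). Slc4a1ap reached the level in control alone, so the choice of members fixed its sign.

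Other transport proteins were counted for comparison, beside 7.82% of all genes at the level past 1.5-fold upward and 8.9% downward. Of 30 genes at the level that belong to solute carrier families or their relatives under other symbols, 3 passed 1.5-fold upward and 3 downward, and the median was -0.14. The prostaglandin carrier Slco2a1 (8.89 in the array labelled deficient and 7.55 in control) and the lysosomal Mfsd12 (11.17 labelled deficient, 10.49 control) were highest, and Mfsd14b (9.41 labelled deficient, 10.34 control) and Mpc1 lowest. Of 18 ABC transporters, 2 passed it upward and 1 downward, and the median was 0.13. The cholesterol exporter Abcg1 (10.18 in the array labelled deficient and 8.90 in control) and Abca9 (8.72 labelled deficient, 7.77 control) were highest, and Abcc4 (-0.66) and Abcb10 (-0.57) lowest. Of 9 genes of P-type pumps, none of the aquaporins having reached the level, 0 passed it upward and 1 downward, the copper pump gene Atp7a (10.09 in the array labelled deficient and 10.80 in control). Atp13a3 (-0.25) was next, and Atp2a3 (0.46) and Atp1b3 (0.26) were highest. Slco2a1, Abca9 and Atp2a3 reached the level in the array labelled deficient alone. Abcb10 and the lower carrier gene Nipal3 (-0.69) reached it in control alone. The choice of genes thus fixed the sign of each of them.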

How the data were processed

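Total RNA of bone marrow derived macrophages was hybridised to an Affymetrix 1.0 ST array, 1 array per group. Per the submitters' processing notes the authors made the deposited log2 values with RMA. Its version and settings, and whether both columns came from the same run or from single hybridisations, are not stated in those sources. The columns are written with unequal numbers of digits. The log2 scale was taken from the range, 2.12 to 13.98 in the array labelled deficient and 2.70 to 14.11 in control.

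Of 25917 rows, 21624 had a single symbol in GEO's platform annotation, 1568 several and 2725 none. All 152 members matched RefSeq by Entrez ID, and 0 symbols changed. Of the members, 22 overlap another protein-coding gene and 9 were read by several rows. The difference is the array labelled deficient minus control. No test was possible. Genes were counted past 1.5-fold (0.585 on the log2 scale), and lists were described by counts and medians. The number of arrays limits the precision.

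Members, classes and lists were chosen with earlier results of these data known. Named genes are the 12 highest and 12 lowest members, the 3 highest and lowest of each class with at least 5 members, members with rows over 1.5-fold apart, the 3 genes on each side of the level and the 2 highest and lowest of each transport list. Other names were chosen after their values were seen. Slc4a1ap was moved to the genes that are not carriers at that stage. Counting and scaling were tested on simulated data. Python 3.11.15, pandas 2.3.3 and statsmodels 0.14.6 were used.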

Additional observations from a re-analysis of the deposited data

How the results depend on the processing

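Each group had 1 array, so no alternative could be set against replicate error, and a median was called moved when it shifted by 0.1 or more. No paired analysis was possible because each group had a single array. Centring, quantile normalization, loess and the mean over rows kept both counts of members past 1.5-fold within 1.5 times of 6 and 19. With the higher value at least 9 there were 3 higher and 11 lower members, and at 2-fold 1 and 3. With the higher value at least 7, the medians were -0.18 for inorganic ions, -0.30 for lipids and organic ions and -0.25 for nucleosides, vitamins and choline. At 9 they were -0.52 for lipids and organic ions and -0.12 for carboxylates. The nucleotide sugar class had a median of -0.17 after centring, -0.18 after quantile normalization and -0.15 after loess. The sugar class had 0.090 after centring and 0.19 after loess, and nucleosides, vitamins and choline 0.0007 after loess. Of 152 members, 17 changed sign under a scaling, the largest of them 0.10 in size. Among 68 named genes, 248 of 272 values under alternatives shifted by less than 0.1, 24 by more, and 0 past 1.5-fold changed sign.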
